A study of Mus musculus with 10 samples.

Results

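The p53 pathway was examined through 10 genes, Trp53 itself and 9 of its known targets, Mdm2, Ccng1, Sesn1, Trp53inp1, Zmat3, Bbc3, Bax, Phlda3 and Eda2r. They were found by matching Ensembl identifiers to symbols, and each had 1 row among the 40620 genes of the count table. All 10 passed the filter on low counts, and 20808 genes did so in all. The lowest count of a member in a library was 462, for Bbc3, and the highest was 45520, for Bax.

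p53, encoded by Trp53, is a transcription factor that is activated by DNA damage and other stress and then arrests or kills the cell. Its level is set mainly by the stability of the protein, since its target Mdm2 marks it for degradation in a feedback loop, so the amount of Trp53 mRNA and the activity of p53 are different quantities. In bone, deletion of Trp53 from osteoblasts is known to raise bone formation, and excess p53 activity is known to restrain osteoblast differentiation.

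RNA of MC3T3-E1, a clonal pre-osteoblast line from mouse calvaria, was sequenced as paired reads of 51 bases at 5 stages with 2 replicates each, named A and B, 10 libraries in all. Subconfluent and confluent cells were kept in growth medium, αMEM with 10% serum. The cells of 24 h, 14 d and 21 d had that time in osteogenic medium, which added β-glycerophosphate at 10 mM and ascorbic acid at 50 μg/ml. No allele or other treatment is given for any group, and nothing in the labels says that A and B were separate cultures, so the p-values measure only the spread between these libraries, which may be technical. Between 44736156 and 162939333 counts fell on genes per library. Subconfluent, confluent and 24 h libraries carried other index sequences than 14 d and 21 d libraries, so across these index sets stage and library set cannot be told apart. Comparisons of confluent against subconfluent cells, of 24 h against confluent cells and of 21 d against 14 d stayed within a set. Replicates of 24 h stood apart, with a median absolute log2 difference between A and B of 0.42 over all genes tested, against 0.11 to 0.16 at the other stages. Levels are given as RPKM, reads scaled to gene length in kilobases and to library size, and tests were run on the counts. A change was called at an adjusted p under 0.05, from edgeR's quasi-likelihood test with Benjamini-Hochberg adjustment over all 20808 genes, and every adjusted p below is from that test unless another is named.

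Most of the p53 target genes had their highest level in confluent cells, while Trp53 itself was as high in subconfluent cells and lower from 24 h on. The mean of the counts scaled to library size (CPM) was highest in confluent cells for 7 of the 10 genes, Trp53, Mdm2, Ccng1, Zmat3, Bax, Phlda3 and Eda2r, whereas 11.3% of all genes tested peaked there. It was highest at 24 h for Trp53inp1, at 14 d for Sesn1 and at 21 d for Bbc3. Subconfluent cells had the lowest mean of 5 of the 10 genes and of 30.8% of all genes tested. A difference among the 5 stages was called for 9 of the 10 genes, against 48.9% of all genes tested, and Phlda3 was the exception (adjusted p = 0.064).

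**Figure D1:**
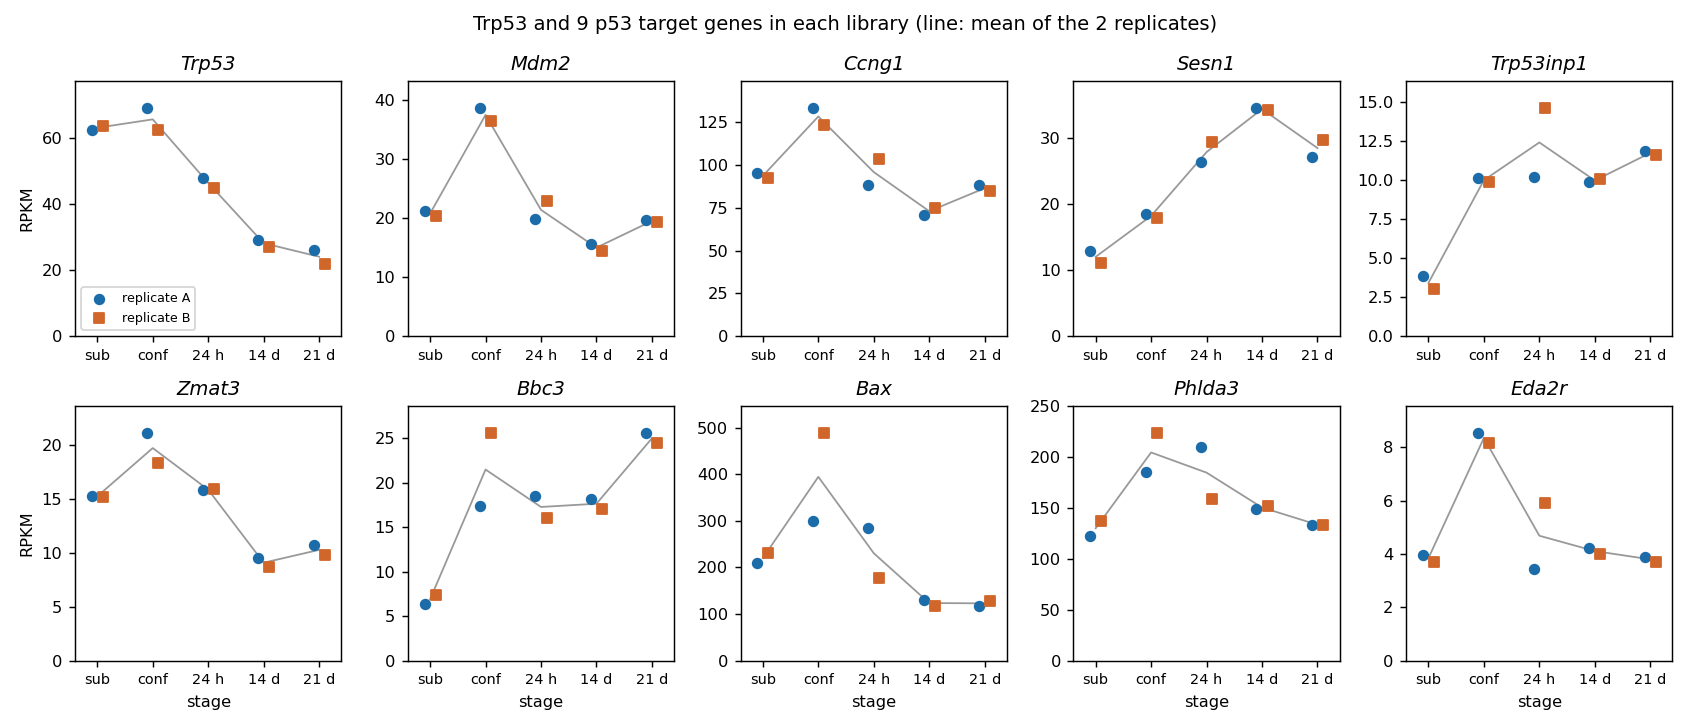
Level of the 10 genes in RPKM (vertical axes, starting at 0) in each library of the 5 stages (horizontal axes; sub, subconfluent; conf, confluent), with circles for replicate A, squares for replicate B and a line through the means. Trp53 stood between 62.4 and 69.1 RPKM in the growth medium libraries and between 22.0 and 29.2 RPKM at 14 d and 21 d, whereas Mdm2, Ccng1 and Eda2r peaked in confluent cells and Sesn1 at 14 d.

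The Trp53 gene spans 69580359 to 69591873 on the plus strand of chromosome 11 (GRCm38). Its level in replicates A and B was 62.5 and 63.9 RPKM in subconfluent cells, 69.1 and 62.4 RPKM in confluent cells, 47.9 and 45.0 RPKM at 24 h, 29.2 and 27.1 RPKM at 14 d, and 26.1 and 22.0 RPKM at 21 d. Subconfluent and confluent values overlapped, and from 24 h on both replicates of each stage lay below both of the stage before. Confluent against subconfluent cells gave a log2 fold change of 0.03 (standard error, SE, 0.11, adjusted p = 0.95), and 24 h against confluent cells gave -0.41 (SE 0.11, adjusted p = 0.092). Trp53 fell by 0.60 on the log2 scale at 14 d against 24 h (SE 0.11, adjusted p = 0.014), and the change at 21 d against 14 d was -0.30 (SE 0.11, adjusted p = 0.16). Across the longer intervals the mRNA fell 2.01-fold at 14 d against confluent cells (adjusted p = 0.00082) and 2.42-fold at 21 d against subconfluent cells (adjusted p = 9.8e-05). These 2 differences and that of 14 d against 24 h lie between the index sets. The call at 14 d against 24 h was lost without 14 d replicate A (adjusted p = 0.074) or without 14 d replicate B (adjusted p = 0.11). A processed copy of the gene, Trp53-ps on chromosome 17, held between 60 and 469 counts per library, 2.36% of the Trp53 total over all libraries, and how reads shared by both were counted is not given in the sources used here.

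Mdm2, the ubiquitin ligase that marks p53 for degradation, followed another course from Trp53. It spans 117688875 to 117710758 of chromosome 10 (GRCm38). Replicates A and B stood at 21.1 and 20.3 RPKM in subconfluent cells, 38.5 and 36.3 RPKM in confluent cells, 19.8 and 22.9 RPKM at 24 h, 15.5 and 14.4 RPKM at 14 d, and 19.6 and 19.4 RPKM at 21 d. The confluent pair lay above all 8 other libraries and the 14 d pair below them, while subconfluent, 24 h and 21 d values lay close together. Mdm2 rose 1.77-fold in confluent against subconfluent cells (log2 SE 0.08, adjusted p = 0.0026). It fell 1.65-fold at 24 h against confluent cells (adjusted p = 0.0043) and 1.31-fold at 14 d against 24 h (adjusted p = 0.016), and the latter call was lost without 14 d replicate A (adjusted p = 0.079) or B (adjusted p = 0.13). When confluent and 24 h libraries alone were fitted, Mdm2 had an adjusted p of 0.33, and no gene of any kind had one under 0.074. At 21 d the level was 1.24-fold that of 14 d (adjusted p = 0.05, just outside the threshold), and without 24 h replicate A or B in the fit this difference was called (adjusted p = 0.0082 and 0.0076). Mdm2 at 21 d differed from subconfluent cells by 0.03 on the log2 scale (SE 0.08, adjusted p = 0.81).

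Ccng1, a cyclin G that binds a phosphatase acting on Mdm2, was abundant and varied less. It is on chromosome 11 of GRCm38 from 40748552 to 40755311. Its level was 95.0 and 92.3 RPKM in subconfluent cells, 133 and 124 RPKM in confluent cells, 88.1 and 104 RPKM at 24 h, 70.9 and 75.0 RPKM at 14 d, and 88.3 and 84.5 RPKM at 21 d. Both confluent libraries were the highest and both 14 d libraries the lowest, the same 2 stages as for Mdm2. Its log2 change was 0.43 at confluence (SE 0.09, adjusted p = 0.055), -0.33 at 24 h against confluent cells (SE 0.09, adjusted p = 0.087) and -0.26 at 14 d against 24 h (SE 0.09, adjusted p = 0.092), none of them called. Ccng1 fell 1.51-fold at 14 d against confluent cells (adjusted p = 0.0027). With no 24 h libraries in the fit the rise in confluent cells was called (adjusted p = 0.0088). Over the 10 libraries the log2 CPM of Ccng1 and Mdm2 had a Pearson correlation of 0.97, the closest pair among the 10 genes. The libraries come in pairs that share a stage, so this correlation is a description of these 10 libraries.

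The promoter windows of the members were read for the p53 motif. RefSeq windows on GRCm38.p6, from 250 bases before to 50 after a transcription start, were at hand for 8 of the 10 genes in 11 windows, and Zmat3 and Trp53inp1 were not matched. The motif searched is the p53 decamer, which has 3 purines, a C, 2 bases that are A or T, a G and 3 pyrimidines and reads the same on both strands. A decamer without mismatch was found in 5 of the 11 windows, those of Trp53, Mdm2, Ccng1, Bax and a start of Sesn1, and in 8.36% of the 32851 windows of the whole table. An adjacent pair of decamers with at most 3 mismatches in all was found in 4 of the 11 windows, those of Trp53, Ccng1, Sesn1 and Bbc3, and in 1.38% of all windows. A pair with at most 1 mismatch was in 22 windows, or 0.067% of the table, among them that of Ccng1. The members were chosen as Trp53 and its known targets. Shares above those of all windows can follow from that choice alone and do not bear on the stage of the highest level. Matches were found in Trp53, Mdm2, Ccng1 and Bax, highest in confluent cells, and in Sesn1 and Bbc3, highest at 14 d and 21 d. Phlda3 and Eda2r were highest in confluent cells and held none. Of the 4 windows printed here, those of Mdm2 and Ccng1 belong to the pair whose levels moved together. That of Bbc3 belongs to a gene with a large change in confluent cells, and that of Bax to the member with the highest level up to 24 h. The windows are written in the direction of transcription with capitals for the decamer or pair.
Mdm2 (chr10:117710709-117711008, minus strand): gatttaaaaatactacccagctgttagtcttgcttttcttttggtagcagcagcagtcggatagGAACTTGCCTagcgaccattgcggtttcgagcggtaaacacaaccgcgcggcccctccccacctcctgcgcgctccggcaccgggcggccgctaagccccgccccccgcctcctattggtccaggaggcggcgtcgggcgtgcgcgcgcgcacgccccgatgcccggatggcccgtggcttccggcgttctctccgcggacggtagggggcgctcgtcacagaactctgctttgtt
Ccng1 (chr11:40755237-40755536, minus strand): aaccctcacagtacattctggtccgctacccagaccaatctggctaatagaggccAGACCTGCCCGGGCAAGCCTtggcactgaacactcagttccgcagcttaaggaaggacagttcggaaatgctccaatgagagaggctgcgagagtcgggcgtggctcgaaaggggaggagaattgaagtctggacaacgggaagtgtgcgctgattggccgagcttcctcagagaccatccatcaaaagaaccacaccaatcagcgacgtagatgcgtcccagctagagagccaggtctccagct
Bbc3 (chr7:16309333-16309632, plus strand): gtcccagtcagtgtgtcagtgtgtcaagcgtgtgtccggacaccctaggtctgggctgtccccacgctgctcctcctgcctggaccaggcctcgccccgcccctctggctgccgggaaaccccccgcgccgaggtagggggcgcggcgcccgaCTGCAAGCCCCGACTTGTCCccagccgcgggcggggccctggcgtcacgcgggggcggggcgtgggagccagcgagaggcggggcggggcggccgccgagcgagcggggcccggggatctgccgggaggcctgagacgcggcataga
Bax (chr7:45466849-45467148, minus strand): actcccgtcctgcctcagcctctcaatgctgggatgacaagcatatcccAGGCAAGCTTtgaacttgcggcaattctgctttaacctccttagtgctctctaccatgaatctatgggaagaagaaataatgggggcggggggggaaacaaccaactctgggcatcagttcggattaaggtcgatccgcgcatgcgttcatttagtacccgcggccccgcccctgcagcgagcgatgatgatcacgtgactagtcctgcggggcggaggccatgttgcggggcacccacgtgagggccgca
The decamer began 186 bases before the start of Mdm2 and 201 bases before that of Bax. In Ccng1 the pair began 195 bases before the start and held 1 mismatch, and in Bbc3 it began 97 bases before the start with 3 mismatches. The windows of Phlda3 and Eda2r and the other windows of Bbc3 and Sesn1 held no match, which says only that these letters are not in those windows.

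Sesn1 and Trp53inp1, which link p53 to growth control and to the response to oxidative stress, were both higher at every later stage than in subconfluent cells, as was Bbc3. Sestrin 1, the product of Sesn1, restrains mTORC1 signalling, and Trp53inp1 encodes a nuclear protein that also takes part in autophagy. Sesn1, on chromosome 10 of GRCm38 from 41809935 to 41908424, stood at 12.9 and 11.1 RPKM in subconfluent cells, 18.6 and 17.9 RPKM in confluent cells, 26.5 and 29.4 RPKM at 24 h, 34.6 and 34.4 RPKM at 14 d, and 27.2 and 29.8 RPKM at 21 d. Each stage up to 14 d lay above the one before with no overlap, and the 24 h and 21 d values overlapped. It had the largest F statistic of the 10 genes, 95.9 over the 5 stages (adjusted p = 6.9e-05). Sesn1 rose 1.49-fold in confluent against subconfluent cells (adjusted p = 0.025), 1.63-fold at 24 h against confluent cells (adjusted p = 0.0091) and 1.35-fold at 14 d against 24 h (adjusted p = 0.023). At 21 d against 14 d the log2 fold change was -0.35 (SE 0.10, adjusted p = 0.066). Against subconfluent cells the level at 21 d was 2.57-fold higher (adjusted p = 3.4e-05), in an opposite direction to Trp53 over the same interval. The stepwise calls depended on single libraries. The first was lost when any of the 8 libraries outside 24 h was left out, with an adjusted p of 0.19 without subconfluent replicate B and of 0.14 without confluent replicate B. The second was lost without confluent replicate A (adjusted p = 0.071) or B (adjusted p = 0.08), and the third without 14 d replicate A (adjusted p = 0.11) or B (adjusted p = 0.14).

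Trp53inp1 spans 11156431 to 11174379 of chromosome 4 (GRCm38). Its level was 3.82 and 2.99 RPKM in subconfluent cells, 10.1 and 9.85 RPKM in confluent cells, 10.2 and 14.6 RPKM at 24 h, 9.88 and 10.1 RPKM at 14 d, and 11.9 and 11.6 RPKM at 21 d. Both subconfluent libraries were far below the other 8. In RPKM the confluent and 14 d values overlapped, and both 24 h values lay above them. In CPM both confluent libraries lay below both 24 h and both 14 d libraries. Trp53inp1 rose 2.88-fold in confluent against subconfluent cells (log2 SE 0.16, adjusted p = 0.0037), within an index set, and was 3.73-fold higher at 21 d than in subconfluent cells (adjusted p = 7.4e-05). No step after confluence was called, with log2 fold changes of 0.39 at 24 h (adjusted p = 0.19), -0.18 at 14 d (adjusted p = 0.47) and 0.16 at 21 d (adjusted p = 0.63), each against the stage before.

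Zmat3, whose zinc finger protein binds RNA and alters splicing and mRNA stability, was lower at 14 d and 21 d, as Trp53 was. Replicates stood at 15.3 and 15.2 RPKM in subconfluent cells, 21.2 and 18.4 RPKM in confluent cells, 15.8 and 16.0 RPKM at 24 h, 9.50 and 8.71 RPKM at 14 d, and 10.8 and 9.82 RPKM at 21 d. All 4 libraries of 14 d and 21 d were below the 6 earlier ones. The gene is on chromosome 3 of GRCm38 from 32334792 to 32366014. Zmat3 fell 1.60-fold at 14 d against 24 h (adjusted p = 0.0051), 1.87-fold at 14 d against confluent cells (adjusted p = 0.00067) and 1.37-fold at 21 d against subconfluent cells (adjusted p = 0.0067). The first of these calls was lost without 14 d replicate B (adjusted p = 0.057) and the last without 21 d replicate B (adjusted p = 0.058). Its log2 fold change in confluent against subconfluent cells was 0.34 (SE 0.10, adjusted p = 0.12), called without 24 h libraries in the fit (adjusted p = 0.036). Over the 10 libraries Zmat3 had a correlation of 0.89 with Trp53, 0.85 with Bax, 0.82 with Ccng1 and 0.8 with Mdm2. Its values with the remaining members were lower, down to -0.63 with Sesn1. Such close values do not set Trp53 apart from Bax, Ccng1 and Mdm2.

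The remaining members act in cell death. Bbc3 encodes PUMA, a BH3-only protein that binds and blocks the survival members of the Bcl-2 family, and Bax forms the pore in the mitochondrial outer membrane. Phlda3 encodes a PH-domain protein that competes with Akt for membrane lipids, and Eda2r is a receptor of the tumour necrosis factor family for an ectodysplasin isoform.

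Bbc3 and Trp53inp1 had the largest fold changes of the 10 genes at confluence, and their log2 values of 1.62 (SE 0.20) and 1.52 (SE 0.16) differed by less than their errors. Without confluent replicate B the value of Bbc3 was 1.31. The gene spans 16308393 to 16318205 of chromosome 7 (GRCm38), and its level was 6.36 and 7.44 RPKM in subconfluent cells, 17.4 and 25.6 RPKM in confluent cells, 18.5 and 16.1 RPKM at 24 h, 18.2 and 17.1 RPKM at 14 d, and 25.6 and 24.4 RPKM at 21 d. The subconfluent pair lay below the other 8 libraries, and the confluent pair spanned nearly the whole range of the later stages. Bbc3 rose 3.07-fold in confluent against subconfluent cells (log2 SE 0.20, adjusted p = 0.0075) and was 3.93-fold higher at 21 d than in subconfluent cells (adjusted p = 0.00016). The call in confluent cells was lost without subconfluent replicate A (adjusted p = 0.093) or B (adjusted p = 0.066). The step from 14 d to 21 d gave a log2 fold change of 0.43 (SE 0.19, adjusted p = 0.23), with both 21 d libraries above both 14 d libraries.

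Bax had the highest level of the 10 genes up to 24 h, and its replicates differed the most. On chromosome 7 of GRCm38 from 45461697 to 45466898, it stood at 209 and 231 RPKM in subconfluent cells, 300.4 and 488 RPKM in confluent cells, 284 and 176 RPKM at 24 h, 130 and 118 RPKM at 14 d, and 117 and 129 RPKM at 21 d. Replicate B was the higher in confluent cells and replicate A the higher at 24 h, so that 24 h values enclosed the subconfluent ones. All 4 libraries of 14 d and 21 d were below the 6 earlier ones. Bax fell 2.75-fold at 14 d against confluent cells (log2 SE 0.30, adjusted p = 0.0092), and this call was lost without confluent replicate B (adjusted p = 0.05), 14 d replicate A (adjusted p = 0.056) or 14 d replicate B (adjusted p = 0.067). Its log2 difference between confluent and subconfluent cells was 0.82 (SE 0.29, adjusted p = 0.21). It was 0.42 without confluent replicate B and 1.13 without confluent replicate A, and with both 24 h libraries left out it was called (adjusted p = 0.046). The exons of Bax share 192 bases with Gm45808, a gene annotated on the same strand and not analysed here.

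Phlda3 ranked beside Bax by level, with 122 and 137 RPKM in subconfluent cells, 185 and 223 RPKM in confluent cells, 210 and 159 RPKM at 24 h, 149 and 152 RPKM at 14 d, and 133 RPKM in both replicates at 21 d. It is on chromosome 1 of GRCm38 from 135766119 to 135769136. The confluent and 24 h values overlapped, and so did the subconfluent and 21 d values in RPKM. In CPM both 21 d libraries (143.7 and 144.4) were above both subconfluent libraries (121.7 and 136.9). None of the 6 comparisons was called for Phlda3, and the largest log2 difference was 0.63, between confluent and subconfluent cells (SE 0.17, adjusted p = 0.12). Without 24 h libraries in the fit this difference was called (adjusted p = 0.012).

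Eda2r, on chromosome X of GRCm38 from 97333840 to 97377216, had the lowest level of the 10 genes from confluent cells on. Its values were 3.97 and 3.71 RPKM in subconfluent cells, 8.53 and 8.16 RPKM in confluent cells, 3.44 and 5.92 RPKM at 24 h, 4.23 and 3.98 RPKM at 14 d, and 3.89 and 3.71 RPKM at 21 d. The confluent pair stood alone, above all 8 other libraries. Eda2r rose 2.13-fold in confluent against subconfluent cells (log2 SE 0.20, adjusted p = 0.032) and fell 1.75-fold at 14 d against confluent cells (adjusted p = 0.018). At 24 h against confluent cells the log2 fold change was -0.76 (SE 0.19, adjusted p = 0.074), and it was called without 24 h replicate A (adjusted p = 0.016) or B (adjusted p = 0.00024). Both calls of Eda2r rested on few libraries. The rise was lost when any of the 8 libraries outside 24 h was left out, with adjusted p-values of 0.16 and 0.20 without subconfluent replicates A and B and of 0.12 and 0.17 without confluent replicates A and B. The fall was lost without confluent replicate A (adjusted p = 0.083) or B (adjusted p = 0.066) and without 14 d replicate A (adjusted p = 0.085) or B (adjusted p = 0.10).

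Taken by comparison, the change at confluence was upward and concerned cells that differed in density and not in medium. In confluent against subconfluent cells 5 of the 10 genes rose, Mdm2, Sesn1, Trp53inp1, Bbc3 and Eda2r, against 1.95% of all genes tested. No member fell, against 1.34% of all genes tested. At an unadjusted p under 0.05 there were 9 higher and 0 lower. The share of all genes tested was not computed at that looser threshold, here or for the unadjusted counts below. The shares printed are for an adjusted p under 0.05. In 9 of the 10 genes both confluent libraries had more CPM than both subconfluent libraries, which held for 28.8% of all genes tested, and Trp53 was the exception. The median log2 fold change of the 10 genes was 0.72, and that of all genes tested was 0.00. The count of 5 depended on the fit. The share of all genes called was not computed for fits without the 24 h libraries or for DESeq2, here or below. Without the 24 h libraries other lists gained calls too, the p53 regulators from 0 to 5 and the Bcl-2 family from 1 to 5. In that fit the count of members was 9, all but Trp53, and DESeq2 called 8. It was 2 without subconfluent replicate A or B, and 3 without confluent replicate A or B or without any of the 14 d or 21 d libraries.

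In 24 h osteogenic medium against confluent cells, Sesn1 alone rose, where 3.59% of all genes tested did, and Mdm2 alone fell, where 1.57% did. The median log2 fold change of the 10 genes was -0.28, and at an unadjusted p under 0.05 there were 2 higher and 4 lower. The numbers called in both directions together were 6 without 24 h replicate A, 4 without 24 h replicate B, and 1 without confluent replicate A or B. At 14 d against 24 h, Sesn1 rose again, against 9.08% of all genes tested, and Trp53, Mdm2 and Zmat3 fell, against 8.21%. Of these 4 calls, 1 was left without 14 d replicate A and 0 without 14 d replicate B, whereas 8 members were called without 24 h replicate B. At 21 d against 14 d none of the 10 genes was called by edgeR's quasi-likelihood test, where 3.77% of all genes tested rose and 5.95% fell. At an unadjusted p under 0.05, 1 member was higher and 2 were lower. DESeq2 called 2 members there and limma-trend 1, and 2 were called without 24 h replicate A or without 24 h replicate B.

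**Figure D2:**
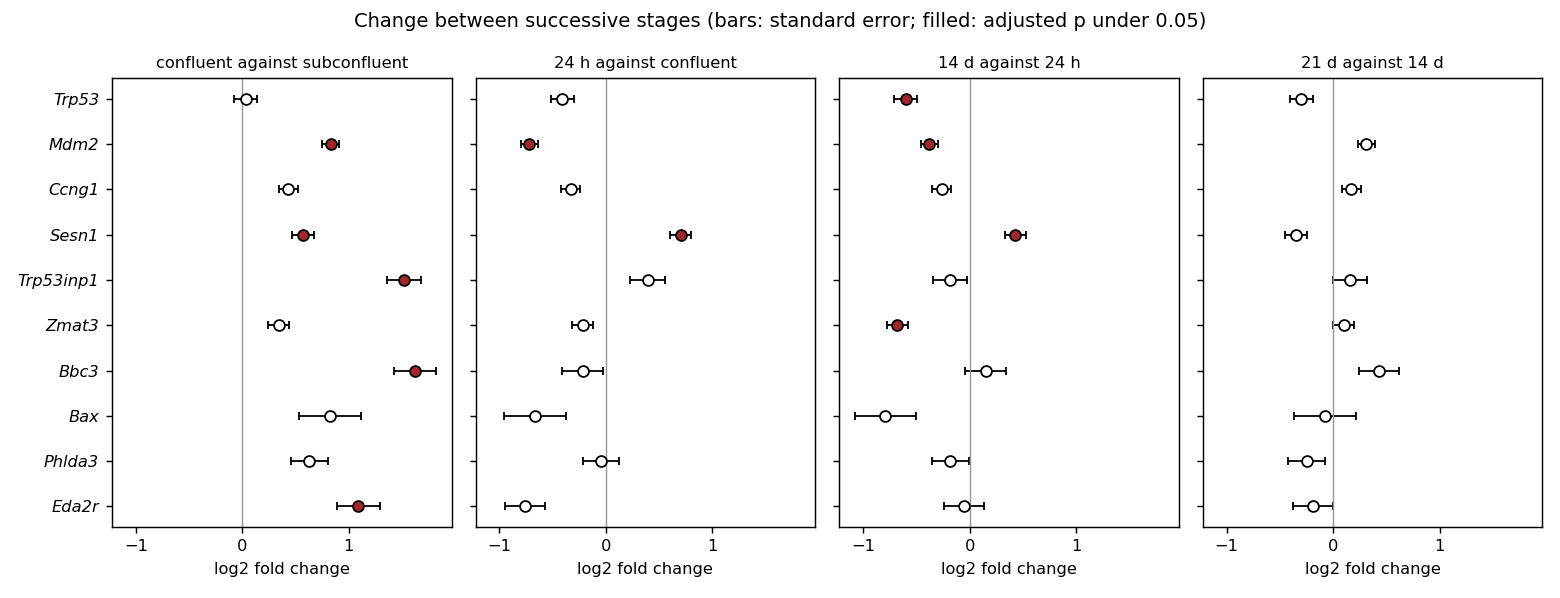
Log2 fold change (horizontal axis) of the 10 genes between successive stages in 4 panels, with bars for the SE and filled points for an adjusted p under 0.05. In confluent against subconfluent cells all points lie at or above 0, from 0.03 for Trp53 to 1.62 for Bbc3, and no point is filled at 21 d against 14 d.

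Over the longer intervals, which cross the index sets, 6 of the 10 genes fell at 14 d against confluent cells, Trp53, Mdm2, Ccng1, Zmat3, Bax and Eda2r, against 15.3% of all genes tested. Sesn1 rose, against 16.9%. The median log2 fold change of the 10 genes was -0.70 and that of all genes tested 0.03. At 21 d against subconfluent cells 3 genes rose, Sesn1, Trp53inp1 and Bbc3, against 27.3% of all genes tested, and 2 fell, Trp53 and Zmat3, against 23.5%. The other 5 genes were near their subconfluent level or not called, with log2 fold changes of 0.03 for Mdm2, 0.00 for Ccng1, 0.10 for Eda2r, 0.16 for Phlda3 and -0.72 for Bax (SE 0.29, adjusted p = 0.076). Bax was called lower when no 24 h libraries were in the fit (adjusted p = 0.021). These 2 comparisons share stages with the stepwise ones, so their counts are not independent of them.

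Other p53 targets made up a list of 24 genes, of which 21 were tested. Of the 21, 10 rose in confluent against subconfluent cells, against 1.95% of all genes tested, and 0 fell, against 1.34%. At an unadjusted p under 0.05 there were 13 higher and 0 lower, and the median log2 fold change was 0.59. With each library left out in turn the number called was between 4 and 13. It was 4 without subconfluent replicate A or B and 5 without confluent replicate B. Cdkn1a, the p21 inhibitor of cyclin-dependent kinases, stood at 74.1 and 77.8 RPKM in subconfluent cells, 165 and 190 RPKM in confluent cells, 145 and 147 RPKM at 24 h, 187 and 184 RPKM at 14 d, and 225 and 232 RPKM at 21 d. Both subconfluent libraries were the lowest and both 21 d libraries the highest. Cdkn1a rose 1.20 on the log2 scale in confluent against subconfluent cells (SE 0.10, adjusted p = 0.0018) and 0.47 at 14 d against 24 h (SE 0.10, adjusted p = 0.018). The second rise was not called without 14 d replicate A, without 14 d replicate B or with only the 2 groups compared, where 0 of the 21 genes were called higher.

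Of that list the smallest p over the 5 stages belonged to Plk2, a polo-like kinase, and Btg2, an antiproliferative cofactor. Plk2 rose by 1.07 on the log2 scale at confluence (adjusted p = 0.0025) and was 2.05 above its subconfluent level at 21 d (adjusted p = 8.3e-06). Btg2 had its highest level in confluent cells, 19.1 and 19.5 RPKM against 6.47 and 6.27 RPKM in subconfluent cells (log2 fold change 1.57, adjusted p = 0.00034), and fell at 14 d against confluent cells by 0.70 on the log2 scale (adjusted p = 0.00071). At 14 d against confluent cells 4 of the 21 genes rose, Plk2 and, named after their values were seen, Rrm2b, Xpc and Trp53cor1. The share of all genes tested that rose was 16.9%. There 13 of the 21 fell, against 15.3% of all genes tested, and the median was -0.64. The mean was highest in confluent cells for 11 of the 21, against 11.3% of all genes tested. Among the other genes of the list, Perp had 3 counts over the 10 libraries and another had 0.

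**Figure D3:**
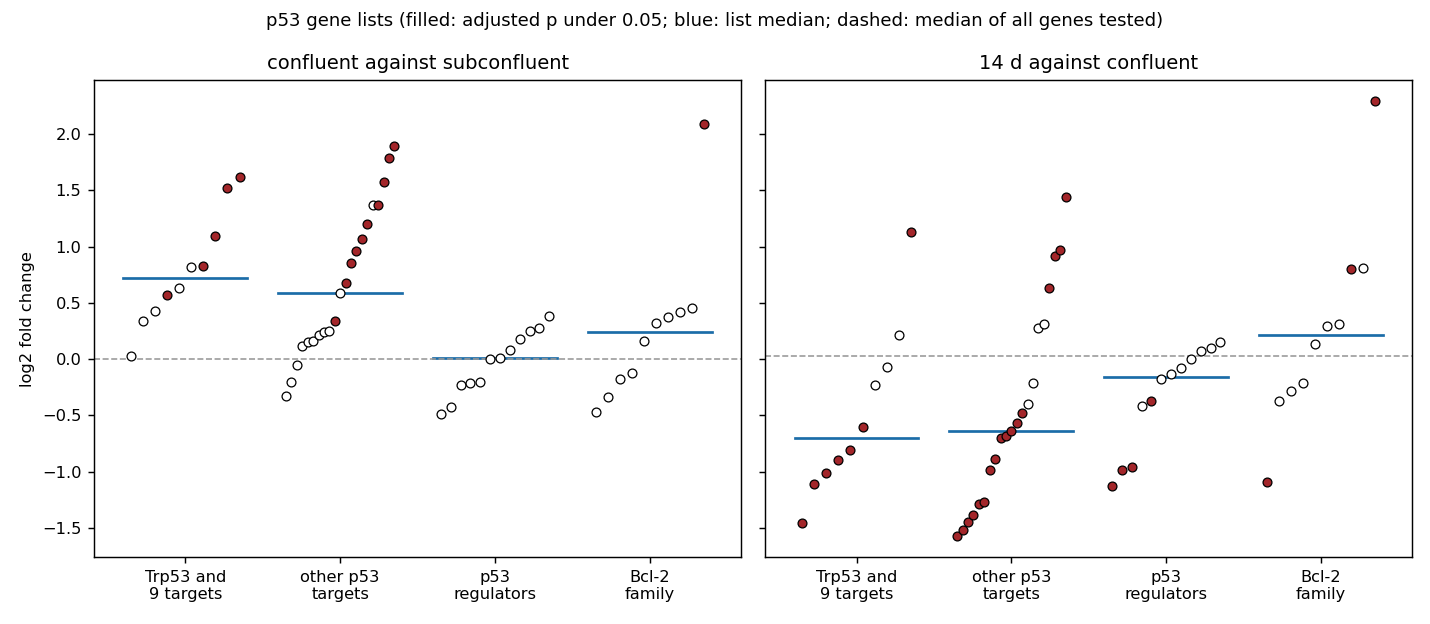
Log2 fold change (vertical axis) of each gene of 4 lists, ordered by value within its list, in confluent against subconfluent cells and at 14 d against confluent cells; filled points have an adjusted p under 0.05, blue bars mark the list median and the dashed line the median of all genes tested. The medians of the 10 genes and of the other p53 targets were 0.72 and 0.59 in confluent cells and -0.70 and -0.64 at 14 d.

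Of the 12 p53 regulators tested, edgeR's quasi-likelihood test called none in confluent against subconfluent cells. Of all genes tested 1.95% rose there and 1.34% fell. At an unadjusted p under 0.05, 2 regulators were higher and 2 lower, and DESeq2 called 3. Without the 24 h libraries 5 were called, 3 higher and 2 lower. The median was 0.01 on the log2 scale. At 14 d against confluent cells 4 fell, Cop1, Chek1 and, named after their values were seen, Rchy1 and Chek2, against 15.3% of all genes tested. None rose (0 at an unadjusted p under 0.05), against 16.9% of all genes tested. Chek1, the checkpoint kinase, and Cop1, a ubiquitin ligase for p53, had the smallest p over the 5 stages. Chek1 was at 5.99 and 5.16 RPKM in subconfluent cells and at 0.546 and 0.624 RPKM at 21 d (log2 fold change -3.13, adjusted p = 1e-05), and Cop1 at 35.2 and 34.6 RPKM and at 15.3 and 15.2 RPKM (log2 fold change -1.08, adjusted p = 3.8e-05). Of the p53 family, Trp63 was between 5.29 and 7.84 RPKM and no comparison of it was called, the lowest adjusted p being 0.087, and Trp73 had 4 counts over all libraries.

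Of 14 Bcl-2 family genes 10 were tested, and the members Bbc3 and Bax were not among them. Bmf, a BH3-only gene, was the only one called in confluent against subconfluent cells, from 0.134 and 0.106 RPKM to 0.456 and 0.598 RPKM (log2 fold change 2.09, adjusted p = 0.0029). Of all genes tested 1.95% rose there and 1.34% fell. Without 24 h libraries 5 of the 10 were called, 3 higher and 2 lower. Bmf was at 2.37 and 2.56 RPKM at 21 d (log2 fold change 4.45 against subconfluent cells, adjusted p = 8.4e-06). Bak1, which acts beside Bax in the mitochondrial membrane, fell from 32.4 and 35.4 RPKM in subconfluent cells to 11.1 and 9.63 RPKM at 21 d (log2 fold change -1.59, adjusted p = 2e-05). At 21 d against subconfluent cells 4 of the 10 rose, against 27.3% of all genes tested, and 4 fell, against 23.5%. These 8 calls became 4 without subconfluent replicate A, subconfluent replicate B or 21 d replicate A, and 5 without 21 d replicate B.

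Ratios of a member to a paralog or partner in the same library separated changes that a level alone does not show. The ratio of Mdm2 to Mdm4, its partner in restraining p53, was 3.64 and 3.95 in subconfluent cells, 5.56 and 5.48 in confluent cells, 3.29 and 2.86 at 24 h, 2.80 and 2.63 at 14 d, and 2.47 and 2.63 at 21 d. Both confluent values were above the subconfluent pair and all later values below it, with Mdm4 0.60 higher on the log2 scale at 21 d than in subconfluent cells (adjusted p = 0.0045). The ratio of Ccng1 to its paralog Ccng2 was 36.4 and 35.8 in confluent cells and 7.65 and 7.40 at 14 d, as Ccng2 rose by 1.33 at 14 d against 24 h (adjusted p = 0.0018) on the log2 scale. The ratio of Sesn1 to Sesn2, a sestrin induced by p53 and by amino acid and endoplasmic reticulum stress, was 0.499 and 0.495 in confluent cells, 2.53 and 2.76 at 14 d, and 0.916 and 1.13 at 21 d. Sesn2 rose by 0.96 in confluent against subconfluent cells (adjusted p = 0.0086), fell by 0.76 at 14 d against 24 h (adjusted p = 0.0075) and rose by 1.03 at 21 d against 14 d (adjusted p = 0.0023), all on the log2 scale. The ratio of Trp53inp1 to Trp53inp2 was 0.290 and 0.239 in subconfluent cells and 1.89 and 1.85 at 21 d. The ratio of Bax to Bcl2, whose product holds Bax in check, was 77.1 and 94.1 in subconfluent cells, 154 and 262 in confluent cells, 208 and 95.2 at 24 h, 69.4 and 68.2 at 14 d, and 65.6 and 73.0 at 21 d. Replicates of this last ratio lay far apart in confluent cells and at 24 h, where the values overlapped. Both confluent values were above the subconfluent pair. At 24 h replicate A was above that pair too, while replicate B, at 95.2, was nearly level with subconfluent replicate B, at 94.1.

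**Figure D4:**
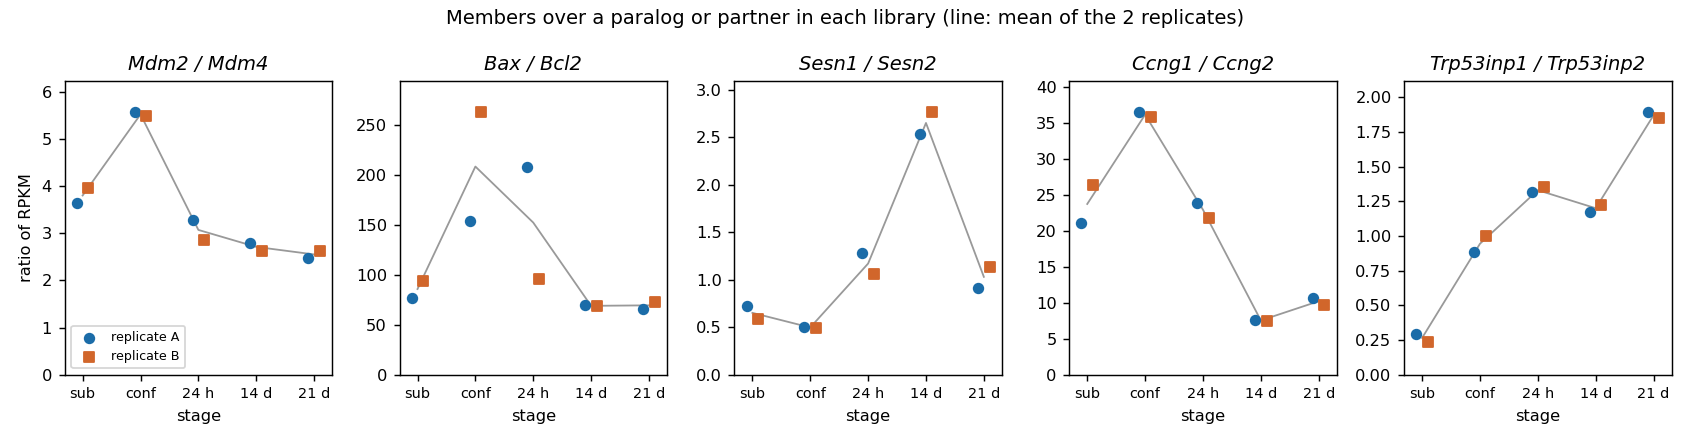
Ratio of RPKM of 5 members to a paralog or partner (vertical axes, starting at 0) in each library by stage, with circles for replicate A, squares for replicate B and a line through the means. The ratio of Mdm2 to Mdm4 peaked in confluent cells at 5.56 and 5.48, that of Sesn1 to Sesn2 at 14 d at 2.53 and 2.76, and that of Bax to Bcl2 differed most between replicates.

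The difference between replicates of the members moved with gene length. At 24 h 3 of the short genes were higher in replicate A, by 0.79 on the log2 scale for Bax, which has 863 bases in the deposited table, 0.50 for Phlda3 with 1556 bases and 0.30 for Bbc3 with 2003 bases. The long genes Eda2r, with 5883 bases, and Trp53inp1, with 6470 bases, were lower in replicate A, with A minus B of -0.68 and -0.41. The order by length had exceptions at 24 h, since Zmat3, the longest member with 8081 bases, had a value of 0.09 and Ccng1, with 2023 bases, one of -0.13. In confluent cells the same 3 short genes were lower in replicate A, with -0.71, -0.28 and -0.56. Spearman's rho of A minus B with length over the 10 genes was 0.71 in subconfluent cells, 0.61 in confluent cells, -0.72 at 24 h, -0.04 at 14 d and 0.47 at 21 d. Over 16133 genes with at least 10 counts in every library it was 0.29, 0.34, -0.41, 0.10 and 0.16 in that order. Between stages, rho of the log2 fold change with length over the 10 genes lay between -0.02 and 0.13 in the 6 comparisons, and over the 16133 genes between -0.17 and 0.16. These are descriptions of single libraries, and the part of length in the results was not tested.

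**Figure D5:**
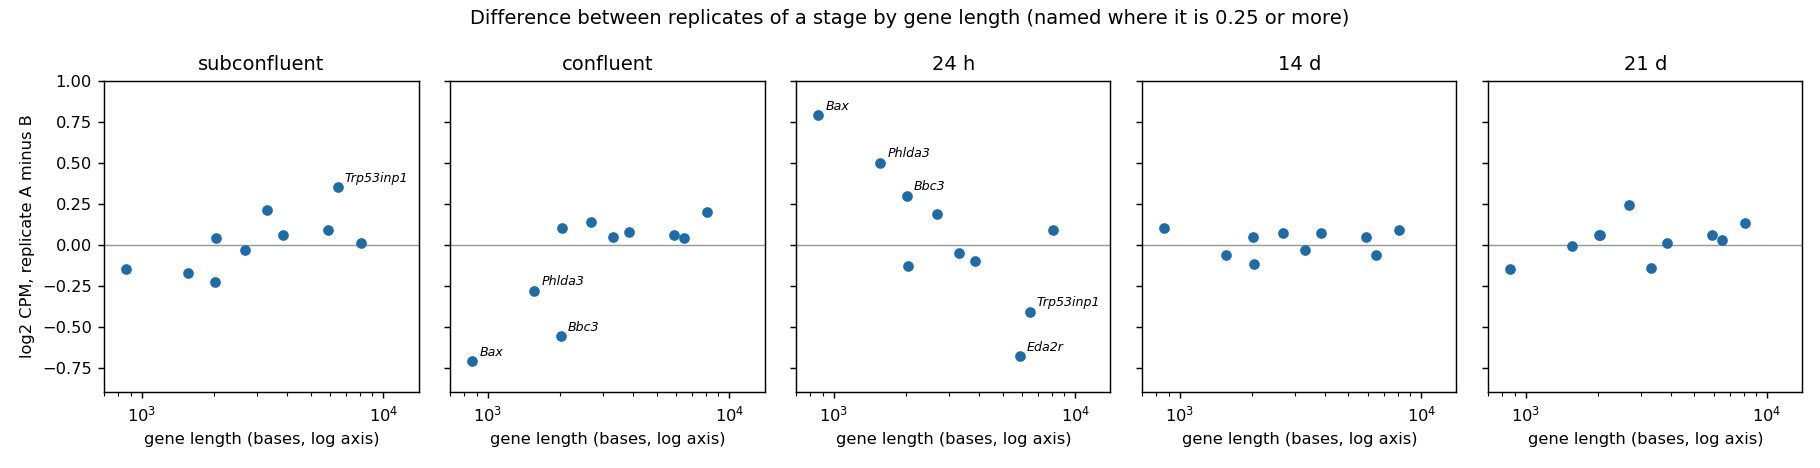
Log2 CPM of replicate A minus that of replicate B (vertical axis) against gene length (horizontal log axis) for the 10 genes in each stage; genes with a difference of 0.25 or more are named. Bax, Phlda3 and Bbc3 lie above 0 at 24 h and below 0 in confluent cells, and the 14 d points stay between -0.12 and 0.10.

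The genes whose log2 CPM followed Trp53 most closely over the 10 libraries, among 11991 genes averaging 5 CPM or more, were U2af2, Usp5, Ythdf2, Mthfd1 and Gm7083, with Pearson correlations from 0.99 to 0.993. For Sesn1 they were Omd, C1qtnf3, Cercam, Ibsp and Rftn2, with correlations from 0.987 to 0.993. Correlations of Trp53 with the 9 targets ran from -0.81 for Sesn1 to 0.89 for Zmat3. All of these rest on 10 libraries in 5 pairs that share stage, so a common course over the stages is enough to give a high value.

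All 6 osteoblast markers were present, with a summed level between 4890 and 15800 RPKM per library. Alpl and Ibsp had the smallest p of them over the 5 stages. At 14 d against confluent cells Alpl rose by 2.43 (adjusted p = 3.1e-05) and Ibsp by 4.62 (adjusted p = 4.4e-05) on the log2 scale. At 21 d against 14 d 0 of the 6 rose, against 3.77% of all genes tested, and 3 fell, against 5.95%. The summed level was 15800 and 14600 RPKM at 14 d and 9040 and 8500 RPKM at 21 d. Cycling cell markers were lower in sum at each later stage. Their summed level was 327 and 322 RPKM in subconfluent cells, 261 and 251 RPKM in confluent cells, 170 and 175 RPKM at 24 h, 122 and 114 RPKM at 14 d, and 28.6 and 40.5 RPKM at 21 d. None of the 6 was called in confluent against subconfluent cells, where 1.95% of all genes tested rose and 1.34% fell. At an unadjusted p under 0.05, 3 were lower and 0 higher. Ccnb1 and Plk1 had the smallest p over the stages, and all 6 cycling cell markers fell at 21 d against 14 d, against 5.95% of all genes tested. Their part in the p53 results was not tested, and in bulk samples fewer cells of a type and less RNA per cell cannot be told apart. Adipocyte markers summed to at most 1.09 RPKM and endothelium markers to at most 0.0558 RPKM. Ptprc and Myod1, which define blood and skeletal muscle cells, had 0 counts, while Lyz2 reached 16.1 RPKM and Acta1 43.6 RPKM.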

How the data were processed

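Total RNA was sequenced in 10 libraries, 2 replicates at each of 5 stages. The authors deposited a table of raw read counts per gene and a table of RPKM, in which they divided the counts by gene length and by the number of reads. The submitters' processing notes name FastQC, TopHat2 2.0.9, R 3.0.1 and the build mm10, while the counting tool and its strand setting are not given in the sources used here. Libraries of 14 d replicate A and 21 d replicate B were read in 2 lanes, and the authors' merged columns were used. The last line of the RPKM table is cut short and leaves 40602 genes, the members among them.

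Of 40620 genes, 39547 were matched to a symbol. Genes were filtered by edgeR's filterByExpr, scaled by the trimmed mean of M-values (TMM) and fitted over all 5 stages with edgeR 4.0.16 (glmQLFit, R 4.3.3). Log2 CPM used a prior count of 2. RPKM carry no TMM factor, and these factors ran from 0.9012 to 1.09, so ratios of RPKM between libraries can differ from the fitted folds. Trp53inp1 averaged 9.97 RPKM at 14 d and 9.99 RPKM in confluent cells, where its fitted log2 fold change was 0.21. Scripts were tested on simulated data. Alternatives used DESeq2 1.42.0 and limma 3.58.1. All 10 members are named, and from each other list the 2 genes with the smallest p over the 5 stages, besides Cdkn1a, Trp63, Trp73, Cdkn2a and the genes of the ratios. The members and lists were chosen with earlier results of these data known.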

Additional observations from a re-analysis of the deposited data

How the results depend on the processing

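All counts and folds were refitted with 1 choice changed at a time. Of the members' fold changes under the alternatives, 1219 kept their direction and their side of the threshold, 54 lost a call, 61 gained a call and 26 turned direction. The cause was not tested for any of them. With only the 2 groups compared, the number called among all genes moved as well. It was 1108 in confluent against subconfluent cells and 5870 at 21 d against 14 d, where the fit of 5 stages called 683 and 2023. At 24 h against confluent cells it was 0 and at 14 d against 24 h it was 319, where the fit of 5 stages called 1072 and 3597. The number of members called in confluent against subconfluent cells, 5 in the report, was 3 with library size alone, 3 with log2 library size as a covariate, 8 with DESeq2, 9 with no 24 h samples, 3 with a 2-fold minimum, 3 at an adjusted p under 0.01, and between 2 and 9 with each library left out. At 24 h against confluent cells, 2 became 5 with DESeq2, 0 with only the 2 groups compared, 0 with a 2-fold minimum, and 1 to 6 with each library left out. At 14 d against 24 h, 4 became 0 with only the 2 groups compared, 0 with a 2-fold minimum, 1 at an adjusted p under 0.01, and 0 to 8 with each library left out. At 21 d against 14 d, 0 became 1 with upper-quartile factors, 2 with DESeq2, 1 with at least 10 counts in every sample, 5 with only the 2 groups compared, 2 with no 24 h samples, 1 with limma-trend on log2(RPKM + 1), 1 on log2(RPKM + 0.1), and 0 to 2 with each library left out. At 14 d against confluent cells, 7 became 4 with a 2-fold minimum and 5 to 7 with each library left out. The numbers at 21 d against subconfluent cells (4 to 6 with each library left out) and over the 5 stages (7 to 10) moved by no more than 1.5 times under any alternative run.

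With the replicate letter as a block, 3 members were called in confluent against subconfluent cells, Sesn1 (adjusted p = 0.065, edgeR) and Eda2r (adjusted p = 0.07) being lost, and no other count of members changed. A minus B of 2 stages had a correlation between -0.18 and 0.10 over 20808 genes. The standard deviation of A minus B over these genes was 0.83 to 1, against a median absolute difference of 0.11 to 0.42. With such a wide spread, this correlation cannot show whether the letters pair the libraries. Within each index set the A libraries shared an index sequence and the B libraries shared another.

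Fold changes that turned direction were not called in the report. On the log2 scale these were, at 21 d against subconfluent cells, Mdm2 at -0.132 with library size alone, -0.004 with DESeq2, -0.085 and -0.089 with limma-trend; Ccng1 at 0.127 with upper-quartile factors, 0.056 with at least 10 counts and 0.008 with summed lanes; Phlda3 at -0.003 with library size alone; and Eda2r at -0.06 with library size alone, -0.013 and -0.016 with limma-trend. Trp53inp1 at 14 d against confluent cells was -0.017 with library size alone and -0.003 with limma-trend on either pseudocount, and Bax at 21 d against 14 d was 0.005 with library size alone. With each library left out the range was -0.04 to 0.101 for Trp53 in confluent against subconfluent cells, -0.044 to 0.039 for Mdm2 and -0.062 to 0.024 for Ccng1 at 21 d against subconfluent cells, -0.475 to 0.09 at 24 h against confluent cells, -0.04 to 0.308 at 14 d against 24 h and -0.328 to 0.237 at 14 d against confluent cells for Bbc3, -0.323 to 0.2 at 24 h against confluent cells and -0.455 to 0.093 at 14 d against 24 h for Phlda3, and -0.354 to 0.283 for Eda2r at 14 d against 24 h. Eda2r was called lower at 14 d without 24 h replicate A (adjusted p = 0.017) and higher without 24 h replicate B (adjusted p = 0.019).

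Scaling by library size alone moved the median over all genes, on the log2 scale, to -0.13 at 24 h, -0.20 at 14 d against confluent cells and -0.12 at 21 d against subconfluent cells, and upper-quartile factors moved the last to 0.17. The share of higher among called genes went from 52.5% to 32.2% at 14 d against confluent cells, from 52.5% to 32.3% at 14 d against 24 h, from 69.6% to 53.8% at 24 h and from 38.8% to 51.1% at 21 d against 14 d with library size alone, the last being 50.7% with upper-quartile factors. The alternatives for the other lists were chosen after seeing the data. With 2 libraries a stage, 1 library decides many of the calls.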

Other observations

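Cdkn2a, which encodes the p19Arf inhibitor of Mdm2 and the p16 inhibitor of cyclin-dependent kinases, had 0 counts in all 10 libraries. It lies within a run of 10 annotated genes on chromosome 4 of GRCm38, from 89137122 to 89463487 (326 kb), all at 0 counts in every library. The protein-coding genes of the run are Mtap, Cdkn2a and Cdkn2b. Mtap encodes an enzyme of methionine salvage, and Cdkn2b the p15 inhibitor of cyclin-dependent kinases. Over the 1015103989 counts of the 10 libraries a count of 0 allows up to 3 counts, or 0.00296 CPM over all, and in the smallest library up to 0.0671 CPM. The next annotated gene before the run, Gm12602, had 2870 counts over all libraries and the next after it, Dmrta1, had 8. Genomic reads were not analysed here, and the reason for the zeros was not tested.

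Gadd45a, a target of p53 that acts in growth arrest and DNA repair and is named here after its values were seen, was higher at 21 d than in subconfluent cells by 2.57 on the log2 scale (SE 0.18, adjusted p = 3.4e-05, edgeR's quasi-likelihood test). Of the 21 other p53 targets 11 rose and 6 fell at 21 d against subconfluent cells, where 27.3% of all genes tested rose and 23.5% fell. The median log2 fold change of the 21 was 0.71. The mean was highest at 21 d for 7 of the 21 (33.3%), near the 28.7% of all genes tested. Among the paralogs and partners of the members, 5 of 9 rose and 3 fell, against the same shares of all genes.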
